A study of Mus musculus with 6 samples.

Results

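Translation initiation and elongation factors are the proteins that load a ribosome onto a messenger RNA, find its start codon and then move the ribosome along it. The genes described here are those whose mouse symbol starts with Eif or Eef and a digit, without the kinases of eIF2 and without pseudogenes, and that reached 1 TPM in 3 or more of the 6 libraries. They number 60, out of 65 rows with such a symbol and 13496 tested genes. TPM is a transcript level corrected for transcript length and scaled to the same total in every library. All 60 genes were at 1 TPM or more in all 6 libraries, the lowest value being 3.72 TPM, so none of them passed through 1 group alone. The genes nearest above the limit were Eif4ebp3 and Eif5b. Just below it were Eif5a2, at 0.25 to 0.78 TPM, and Eef1akmt3, at 0 to 0.31, while Eef1a2, Eif4e1b and Eif2c5 were listed at 0 in every library. The family was picked by name and level, with results of these data already known, so its shared direction is given as a description.

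The cells came from the bone marrow of C57BL/6 mice and were sorted as LSK cells (lineage-negative, Sca1-positive, cKit-positive), the fraction that holds blood stem cells and multipotent progenitors. The group named DIC in the labels had colitis induced with dextran sulfate sodium (DSS) at 2.5% for 5 days, and the other was the control. Each group held 3 mice and 3 libraries, called DIC 1, 2 and 3 and control 1, 2 and 4. Age and sex are not given in the sources used here, and no genetic change was stated for either group. The study asked how colitis changes gene expression in these cells. The labels do not say that each library is 1 mouse, so p-values measure the spread between libraries.

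Protein synthesis starts when eIF2 brings the initiator tRNA to the small ribosomal subunit, which eIF1, eIF1A and the large scaffold eIF3 hold ready, while eIF4F binds the cap of the message and unwinds its leader. eIF5 and eIF5B then release eIF2 and join the large subunit, eIF2B recharges eIF2 with GTP, and eEF1 and eEF2 deliver each tRNA and move the ribosome on. In blood stem cells the rate of protein synthesis is kept low, and it is known to be tightly controlled there.

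Many messages of the translation machinery begin with an oligopyrimidine tract (TOP), through which the kinase complex mTORC1 controls their use. The bases around the annotated transcript starts are shown because 9 of the 60 genes belong to a list of such messages: Eef1a1, Eef1b2, Eef1d, Eef1g, Eef2, Eif3e, Eif3f, Eif3h and Eif4b. RefSeq promoters (build GRCm38.p6) matched 46 of the 60 genes, with 60 annotated starts. Each sequence below runs from 10 bases before to 20 bases after the annotated start, 5′ to 3′, and capitals mark pyrimidine runs of 8 or more bases. Eef1a1 lies at chr9:78481705-78481734, minus strand, Eif3f at chr7:108934405-108934434, plus strand, Eif3l at chr15:79075213-79075242, plus strand and Eif2b5 at chr16:20498807-20498836, plus strand. Eif2s3x lies at chrX:94212632-94212661, minus strand, Eif2s3y at chrY:1010585-1010614, plus strand, Eef2 at chr10:81176621-81176650, plus strand and Eef1b2 at chr1:63176821-63176850, plus strand.
Eef1a1: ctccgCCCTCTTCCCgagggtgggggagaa
Eif3f: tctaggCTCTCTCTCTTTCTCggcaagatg
Eif3l: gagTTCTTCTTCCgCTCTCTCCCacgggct
Eif2b5: CTCTTTCTCTCCCTgcaactacaccttcgc
Eif2s3x: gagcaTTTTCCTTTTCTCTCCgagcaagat
Eif2s3y: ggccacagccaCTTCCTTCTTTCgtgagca
Eef2: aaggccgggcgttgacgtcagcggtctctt
Eef1b2: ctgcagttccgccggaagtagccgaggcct
Such a run stood in this 30-base window at 18.3% of the starts of these genes, 11.4% of the starts of all tested genes and 11.2% of all starts in the table. The genes with a run were Eef1a1, Eif2b2, Eif2b5, Eif2s3x, Eif2s3y, Eif3f, Eif3l, Eif4e and Eif4enif1. Runs in the 10 bases before the start were counted too. The run of Eif4e lay wholly there and that of Eif2b5 mostly there, outside the annotated transcript. Eef2, Eef1b2 and Eif4b, on the list of TOP messages, had no such run within the window at these annotated starts, which need not be the starts used in these cells. The Eef2 window ends in a run of 6 pyrimidines, and bases beyond its edge were not counted. Eef1d, Eef1g, Eif3e and Eif3h, also on that list, were not matched to a promoter.

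The 250 bases before the start are shown for the gene with the lowest fold change in DIC, the gene with the highest, and a pair of genes from the elongation and eIF3 groups. The sequence letters searched, on both strands over 300 bases, were the E-box CACGTG (bound by MYC and related factors), the ETS core CCGGAA, the TATA box TATAAA and the cyclic AMP element TGACGTCA. Capitals mark matches to them. Eef1e1 lies at chr13:38659029-38659278, minus strand, Eif4g3 at chr4:137993205-137993454, plus strand, Eif3f at chr7:108934165-108934414, plus strand and Eef2 at chr10:81176381-81176630, plus strand.
Eef1e1: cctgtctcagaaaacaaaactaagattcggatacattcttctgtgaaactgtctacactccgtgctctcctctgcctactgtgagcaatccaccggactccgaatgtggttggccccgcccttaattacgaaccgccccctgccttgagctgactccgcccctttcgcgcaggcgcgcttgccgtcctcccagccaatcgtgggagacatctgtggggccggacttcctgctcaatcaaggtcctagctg
Eif4g3: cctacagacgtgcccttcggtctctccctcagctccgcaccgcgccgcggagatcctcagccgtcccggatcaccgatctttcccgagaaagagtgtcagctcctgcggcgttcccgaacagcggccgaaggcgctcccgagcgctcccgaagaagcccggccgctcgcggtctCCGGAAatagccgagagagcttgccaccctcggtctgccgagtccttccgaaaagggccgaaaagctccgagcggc
Eif3f: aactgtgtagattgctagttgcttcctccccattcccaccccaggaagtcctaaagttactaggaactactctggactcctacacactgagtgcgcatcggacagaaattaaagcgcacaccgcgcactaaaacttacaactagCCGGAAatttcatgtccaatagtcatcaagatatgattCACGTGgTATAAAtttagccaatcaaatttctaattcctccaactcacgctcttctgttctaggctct
Eef2: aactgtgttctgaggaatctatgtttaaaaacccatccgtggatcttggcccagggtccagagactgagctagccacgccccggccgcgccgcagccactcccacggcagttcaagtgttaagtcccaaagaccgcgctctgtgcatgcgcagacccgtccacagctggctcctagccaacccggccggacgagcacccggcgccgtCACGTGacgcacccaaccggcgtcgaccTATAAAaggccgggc
The E-box letters stood in 23.3% of the promoters of these genes, in 10.3% of those of tested genes and in 7.15% of all promoters. For the ETS core the shares were 41.7%, 28.5% and 14.9%, for the TATA box 8.33%, 7.07% and 13.6%, and for the cyclic AMP element 1.67%, 3.04% and 1.79%. The 12 genes with an E-box (Eef1akmt4, Eef2, Eef2k, Eif1b, Eif3a, Eif3f, Eif3k, Eif4a1, Eif4e, Eif4g1, Eif4h and Eif5a) had a median log2 fold change of -0.39, against -0.33 for the other genes with a promoter. These are matches of letters, given as a description.

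The 6 libraries did not separate cleanly by group. Control 2 correlated with the DIC libraries at 0.943, 0.962 and 0.957 (Pearson, log2(TPM + 1) over tested genes), and with controls 1 and 4 at 0.950 and 0.940. Genes of a neutrophil list of 16 (S100a8, Ltf, Ly6g and others) took 22.9%, 15.6% and 19.2% of all TPM in DIC 1, 2 and 3, and 4.28%, 12.7% and 3.04% in controls 1, 2 and 4. S100a8, a calprotectin subunit of neutrophils, reached 105476 TPM in DIC 1. The gate's own markers were far lower: Kit measured 90.7, 82.3 and 95.2 TPM in DIC and 54.2, 99.5 and 68.2 in the controls, and Ly6a (Sca1) 23.8, 18.9 and 15.5 and 19.6, 33.03 and 49.9. All 16 neutrophil genes had positive fold changes. Basophil and mast cell genes, 8 of 9 with negative fold changes, summed to 0.046% to 0.063% of TPM in DIC and 0.107% to 0.350% in the controls. For erythroblast genes (0 of 9 negative) the sums were 0.016% to 0.069% and 0.016% to 0.023%, for B lineage genes (8 of 8 negative) 0.049% to 0.052% and 0.051% to 0.089%, and for T and NK cell genes (6 of 6 negative) 0.132% to 0.179% and 0.176% to 0.223%. The macrophage and dendritic list (4 of 9 negative) summed to 0.017% to 0.018% and 0.014% to 0.019%. For the LSK and stem cell list, which holds Kit and Ly6a (6 of 11 negative), the sums were 0.037% to 0.043% and 0.048% to 0.058%. These counts cover tested genes only, 8 of 10 B lineage entries, 6 of 11 T and NK entries and 11 of 12 LSK and stem cell entries. Only 1 T and NK gene reached 5 TPM in 3 or more libraries, with a log2 fold change of -0.38. The count and the sum of that list are therefore a weak guide to those cells. Of the entries that missed the TPM filter, Cd3e, Cd8a, Cd4 and Pax5 were at most 1.57 TPM in any library. Ms4a1 measured 2.81, 0.25 and 1.04 TPM in DIC and 0.18, 0.41 and 0.20 in the controls. Cd3d measured 2.08, 0.89 and 1.29 TPM in DIC and 0.61, 0.64 and 0.98 in the controls. The part of these lists other than the neutrophil one in the results below was not tested.

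As a group the translation factors took a smaller share of the RNA in DIC. Together they made up 0.958%, 1.02% and 1.07% of all TPM in DIC 1, 2 and 3, and 1.53%, 1.10% and 1.41% in controls 1, 2 and 4. Every DIC library was below every control, but control 2 lay close to DIC 3. The log2 fold change, DIC minus control, was negative for 55 of the 60 genes, where 58.5% of all tested genes were negative. Its median was -0.37, against -0.083 over all tested genes, and the family's quartiles were -0.46 and -0.19, against -0.32 and 0.19. The whole range ran from -0.93 for Eef1e1 to 0.50 for Eif4g3, and 11 genes were at or below -0.5, as were 12.0% of all tested genes. The positive values belonged to Eif4g3, Eif4g2, Eif4ebp3, Eif4g1 and Eif2s1. In bulk libraries, fewer cells of a type and less RNA per cell cannot be told apart.

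No member passed the test. With limma on log2(TPM + 1) and Benjamini-Hochberg adjustment over all 13496 genes, 0 of the 60 were called higher and 0 lower, where 0.037% and 0.0222% of all genes were called, and the lowest adjusted p in the family was 0.212. At an unadjusted p under 0.05, 28 genes were lower and 1 higher, against 13.8% and 6.43% of all genes. The groups did not overlap for 28 genes lower in DIC and for 1 higher, Eif4g3, against 18.4% and 7.08% of all genes. Highly expressed genes in general leaned the same way: the 1490 tested genes with a mean of at least 100 TPM had a median of -0.29, and 568 of them did not overlap and were lower. The 25 translation factors at that level had a median of -0.44 with 16 such genes, and the 35 below it a median of -0.26 with 12.

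**Figure D1:**
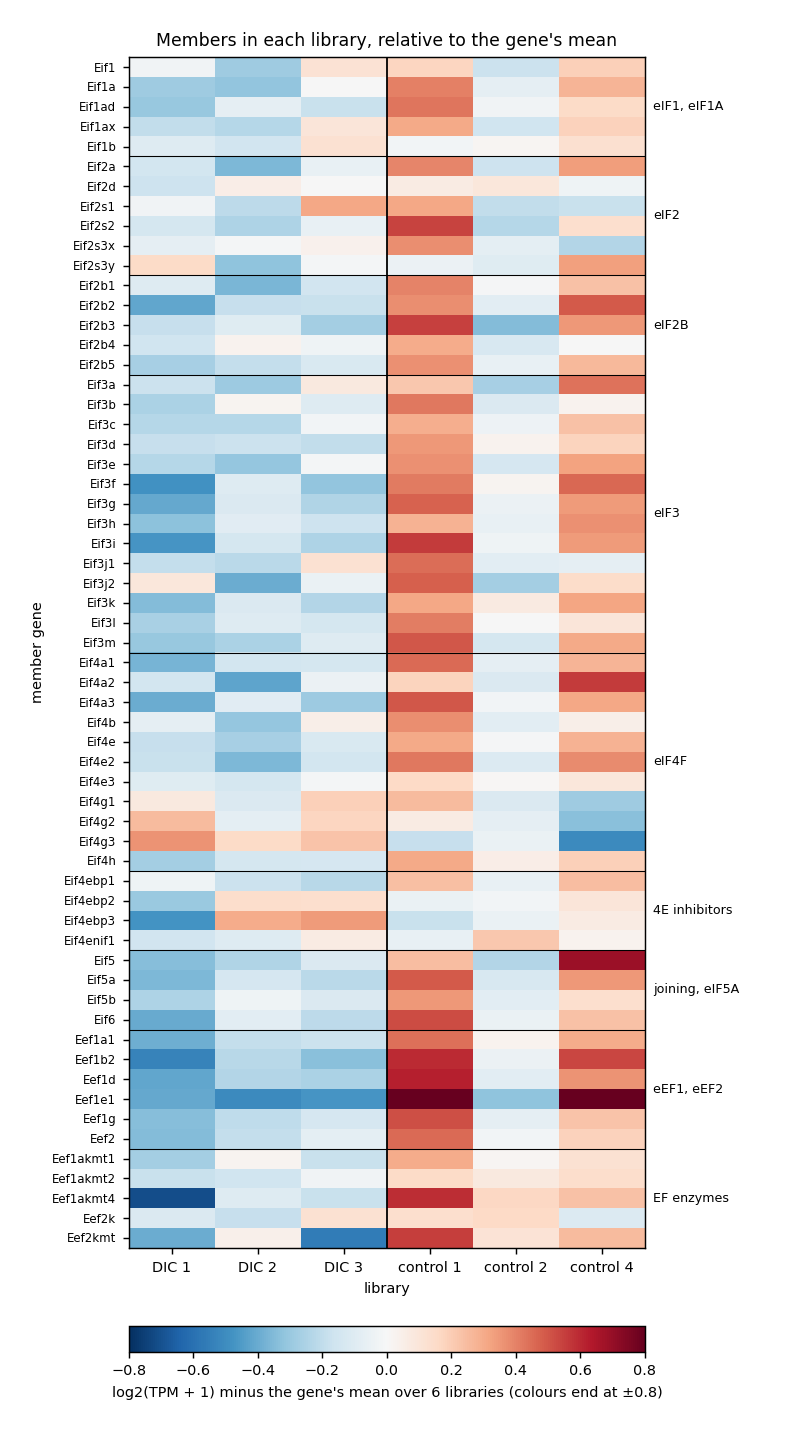
Level of each of the 60 genes in each library, as log2(TPM + 1) minus the gene's mean over the 6 libraries, ordered by role, with red above and blue below the mean. Control 1 is the highest library in 40 genes and control 4 in 12, while control 2 is mostly pale, being the lowest control in 50.

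The calls depended on control 2. It was the lowest control in 50 of the 60 genes, as it was in 36.7% of all tested genes, and it lay within the DIC range in 26, against 44.6% of all genes. At a mean of at least 100 TPM it was the lowest control in 24 of 25 translation factors and 1032 of 1490 tested genes. Controls 1 and 4 were both above every DIC library in 45 genes, against 30.9% of all. Without control 2, limma called 22 genes lower and 0 higher (8.45% and 3.93% of all genes), with a median of -0.48. That fit set the 3 DIC libraries against controls 1 and 4 only. At a mean of at least 100 TPM it called 15 of 25 translation factors and 467 of 1490 tested genes lower. Their medians were -0.57 and -0.38. The same fit over the whole table then called 530 genes higher and 1141 lower, against 5 and 3 with all libraries. The controls also varied more than DIC: the median coefficient of variation over the family was 16.7% in control and 9.30% in DIC, and 20.4% and 13.8% over all tested genes.

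**Figure D2:**
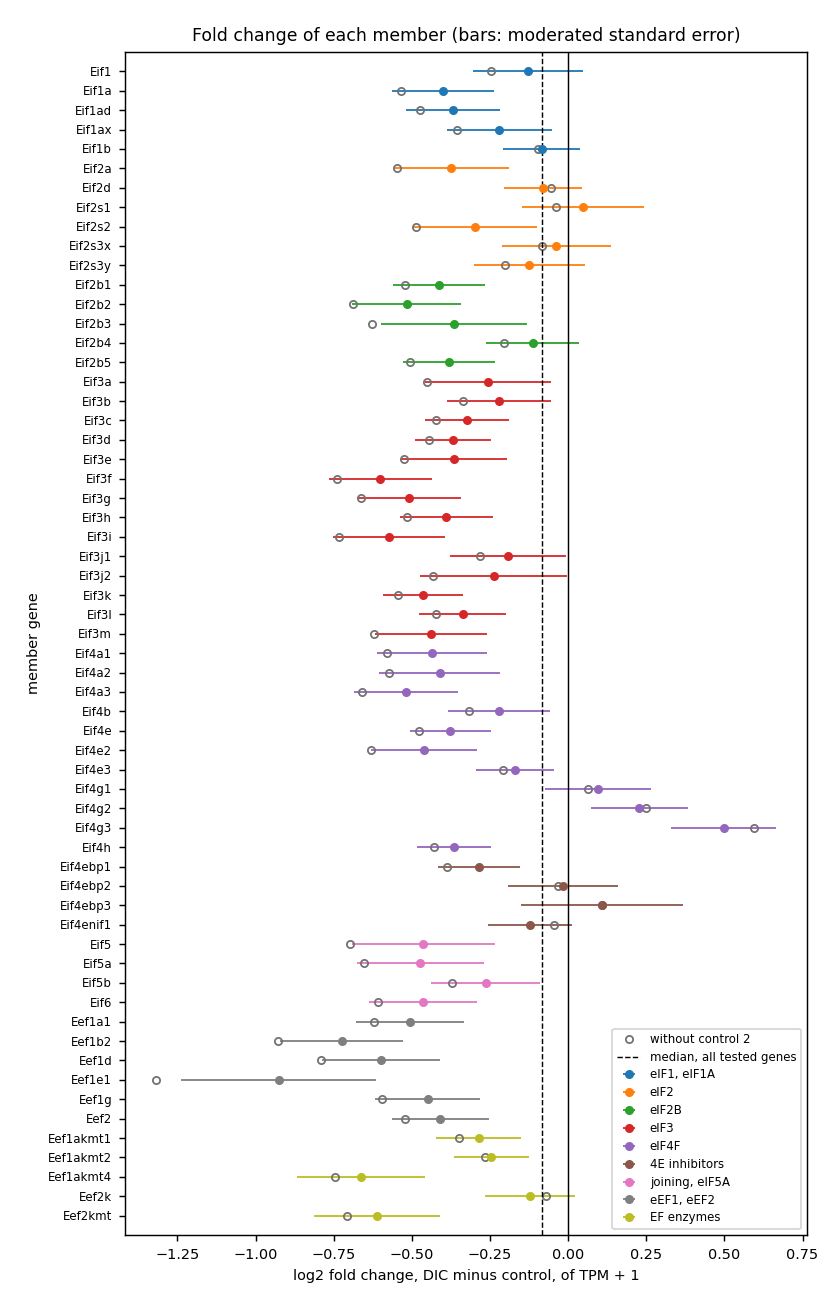
Log2 fold change of each gene (horizontal axis, DIC minus control, TPM + 1) with its moderated standard error, coloured by role; open circles leave out control 2. Nearly all points lie left of the dashed line, the median of all tested genes at -0.083, and Eif4g3 lies farthest right at 0.50.

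The neutrophil share moved with these values. As a share of the TPM outside the neutrophil list, the translation factors made up 1.24%, 1.21% and 1.33% in DIC 1, 2 and 3 and 1.60%, 1.26% and 1.45% in controls 1, 2 and 4, so control 2 lay below DIC 3. With that list removed and TPM rescaled, the family's median was -0.16 and that of all genes 0.105, a shift of all genes by over 0.1. The gap between them was -0.27, against -0.28 as deposited. With the neutrophil score (mean log2 level of the list) as a covariate, the family's median was -0.090 and that of all genes -0.100, with 0 members at an unadjusted p under 0.05. That score was 11.3, 9.61 and 10.7 in DIC and 7.92, 9.38 and 7.40 in controls 1, 2 and 4, with no overlap, so the group and the score cannot be told apart in 6 libraries.

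**Figure D3:**
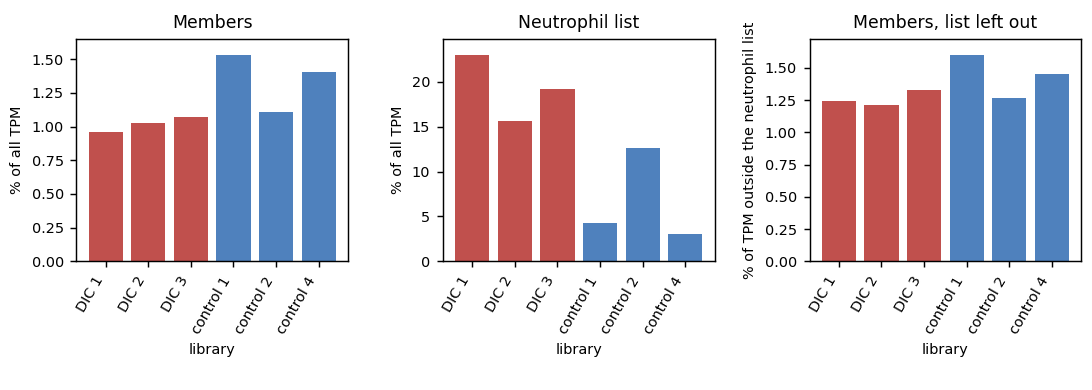
Share of TPM by library (bars, red DIC and blue control) for the 60 genes, for the 16 neutrophil genes, and for the 60 genes over the TPM outside the neutrophil list. Control 2 stands between the groups in the first and middle panels, at 1.10% and 12.7%, and below DIC 3 in the last.

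The elongation factors had the lowest median of the 9 role groups. All 6 genes of the eEF1 and eEF2 group had negative fold changes and none of them overlapped between groups, with a median of -0.55. Without control 2, 5 were called lower. Over all tested genes, 18.4% were lower without overlap and 8.45% were called lower without control 2. Of the 1490 tested genes with a mean of at least 100 TPM, 568 were lower without overlap. Without control 2, 467 of these 1490 were called lower. Eef1a1 (ENSMUSG00000037742), the GTPase that carries tRNAs to the ribosome, measured 1374, 1580.4 and 1599 TPM in DIC 1, 2 and 3 and 2445, 1837 and 2217 in controls 1, 2 and 4. Its log2 fold change was -0.51 ± 0.17 (SE; limma adjusted p = 0.213, and 0.0359 without control 2). All controls were above all DIC libraries, with control 2 nearest to them. Eef1b2, which reloads eEF1A with GTP, measured 237, 295 and 273 TPM in DIC and 519.8, 333 and 499 in the controls, a log2 fold change of -0.72 ± 0.20 with the lowest unadjusted p of the family (0.00762, limma adjusted p = 0.212). Eef1d, another subunit of that exchange complex, measured 164, 186 and 183 and 337, 206 and 281 TPM (log2 fold change -0.60). In both, controls 1 and 4 were the highest libraries, and control 2 lay between them and DIC. Eef1g, the remaining subunit of the complex, had a log2 fold change of -0.45 (95% interval -0.84 to -0.054).

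Eef1e1 has an elongation factor symbol, but its product, AIMP3, is known as a scaffold of the multi-tRNA synthetase complex. It measured 39.99, 37.2 and 38.1 TPM in DIC and 96.4, 42.4 and 98.3 in the controls, so that control 2 sat just above the DIC level while controls 1 and 4 were far above it. Its log2 fold change was -0.93 ± 0.31 (95% interval -1.66 to -0.19, limma adjusted p = 0.213) and -1.32 without control 2 (adjusted p = 0.00997). Eef2, the translocase that moves the ribosome by 1 codon, measured 212, 237 and 256 TPM in DIC and 369, 265 and 307 in the controls (log2 fold change -0.41, limma adjusted p = 0.223, and 0.0575 without control 2). Eef2 was the highest in fold change of its group and the groups did not overlap.

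Enzymes that modify the elongation factors had a median log2 fold change of -0.29 over 5 genes, with 0 called with all libraries and 0 without control 2. The median was -0.082 after rescaling. Eef1akmt4, a lysine methyltransferase of eEF1A, measured 21.1, 32.6 and 30.9 TPM in DIC and 53.5, 39.6 and 41.5 in the controls (log2 fold change -0.66 ± 0.20, limma adjusted p = 0.212). DIC 1 was the lowest library and the groups did not overlap. Eef2kmt, a methyltransferase of eEF2, measured 16.4, 22.5 and 14.6 and 32.6, 23.7 and 26.4 TPM, also without overlap (log2 fold change -0.61). Eef1akmt1 and Eef1akmt2, further methyltransferases of eEF1A, had log2 fold changes of -0.29 and -0.25. Eef2k, the kinase that inactivates eEF2, measured 31.2, 29.8 and 36.9 and 37.3, 38.1 and 31.4 TPM, with overlapping groups and a fold change of -0.12 (95% interval -0.46 to 0.21).

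Factors of subunit joining and eIF5A had a median of -0.46 over 4 genes. Of these, 2 were called lower without control 2, as were 8.45% of all tested genes. Eif5a, which carries the amino acid hypusine and helps the ribosome past difficult stretches, was the most abundant gene of the family by its mean. It measured 1462, 1708 and 1619.9 TPM in DIC and 2638, 1722 and 2386 in the controls, with a log2 fold change of -0.47 ± 0.20 (limma adjusted p = 0.248, and 0.0320 without control 2). Control 2 exceeded DIC 2 by only a narrow margin. Eif5, the GTPase activator of eIF2, measured 219, 235 and 256 and 329.8, 236 and 447 TPM, where control 2 lay within the DIC range and control 4 far above it. Eif6, which keeps the ribosomal subunits apart, measured 85.2, 107 and 97.7 and 162, 109 and 133 TPM, a log2 fold change of -0.46 (limma adjusted p = 0.220). Eif5b, the joining GTPase, was low throughout at 7.34, 8.69 and 8.13 and 11.6, 8.35 and 9.88 TPM. The 4 genes together reached -0.63 without control 2 and turned to 0.038 with the neutrophil covariate.

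eIF3, the largest initiation complex, had negative fold changes in all 14 of its genes, with a median of -0.37. In 7 of them the groups did not overlap, where 18.4% of all tested genes were lower without overlap. Without control 2, 8 were called lower, as were 8.45% of all tested genes. Eif3f measured 58.2, 76.1 and 65.5 TPM in DIC and 109.5, 83.1 and 113 in the controls, the lowest fold change of the complex (-0.60 ± 0.17, limma adjusted p = 0.212). Eif3i measured 120.0, 151 and 140.3 and 246, 163 and 211 TPM (log2 fold change -0.57), and Eif3k 205, 240.3 and 221 and 323, 273 and 324 (log2 fold change -0.46). In all 3 subunits every control was above every DIC library. Eif3a, the largest subunit, measured 98.3, 90.2 and 117 and 129, 91.98 and 150.1 TPM and overlapped, with control 2 next to the lowest DIC library (95% interval of the fold change -0.73 to 0.22). The loosely bound subunit eIF3j is encoded by a pair of genes. Eif3j1, with the highest fold change of the complex, measured 50.1, 49.3 and 62.5 and 78.6, 54.1 and 54.5 TPM and also overlapped. The other genes of the complex, Eif3b, Eif3c, Eif3d, Eif3e, Eif3g, Eif3h, Eif3j2, Eif3l and Eif3m, lay between Eif3f and Eif3j1 in fold change. Among these 9, levels ran from 8.75 TPM, Eif3j2 in DIC 2, to 279.60 TPM, Eif3g in control 1. The subunits Eif3d, Eif3g, Eif3h and Eif3l had every DIC library below every control, with log2 fold changes of -0.37, -0.51, -0.39 and -0.34. Eif3d had the smallest spread of these 9 in DIC, at 85.2, 85.8 and 84.2 TPM, against 123, 98.9 and 109 in the controls.

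eIF2B, the exchange factor that recharges eIF2 and is the target of the integrated stress response, had a median of -0.38 over its 5 genes. Of these, 3 were lower without overlap (18.4% of all tested genes) and 3 called lower without control 2 (8.45% of all). Eif2b2 measured 60.96, 71.8 and 72.04 TPM in DIC and 106, 76.8 and 115 in the controls (log2 fold change -0.52 ± 0.17, limma adjusted p = 0.213). Eif2b5, the catalytic subunit, measured 28.5, 30.1 and 31.6 and 44.7, 33.04 and 41.4 TPM, with control 2 just above the DIC libraries (log2 fold change -0.38, adjusted p = 0.0471 without control 2). Eif2b4 measured 33.2, 37.99 and 36.3 and 46.1, 33.95 and 37.2 TPM and overlapped. Eif2b1, a regulatory subunit, measured 47.3, 39.3 and 45.6 and 67.2, 50.6 and 59.98 TPM without overlap. Eif2b3 measured 23.2, 24.7 and 21.8 and 39.1, 20.7 and 33.95 TPM, where control 2 was the lowest of all libraries, and the gene was called lower in the fit without that library (limma adjusted p = 0.406, and 0.0377 without control 2).

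eIF2 itself and the related carriers of initiator tRNA stood nearer to no change, with a median of -0.10 over 6 genes and no gene without overlap. After removal of the neutrophil list and rescaling the median was 0.10. Eif2s1, which encodes the alpha subunit that stress kinases phosphorylate, measured 175, 154 and 221 TPM in DIC and 221, 156 and 157 in the controls (log2 fold change 0.047, 95% interval -0.41 to 0.51). DIC 3 and control 1 were the high libraries. The gamma subunit has an X-linked and a Y-linked gene: Eif2s3x measured 32.5, 33.7 and 35.03 and 44.5, 32.4 and 28.9 TPM, and Eif2s3y 56.4, 40.3 and 50.1 and 48.9, 47.4 and 63.9. Neither passed the test (limma adjusted p = 0.917 and 0.716). Eif2s3y was expressed in all 6 libraries and Xist was at most 0.22 TPM. Eif2a, whose product can deliver initiator tRNA without eIF2, measured 28.2, 24.2 and 30.00 and 41.3, 27.8 and 39.6 TPM with control 2 inside the DIC range. Eif2s2, the beta subunit, measured 57.95, 53.9 and 61.4 and 93.8, 54.4 and 70.3 TPM and overlapped, with control 1 the highest library and control 2 inside the DIC range. Eif2d, which serves reinitiation, had a log2 fold change of -0.080.

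The factors of start codon selection had a median of -0.22 over 5 genes, 0 of them called without control 2. Eif1, which guards against wrong start codons, was among the most abundant genes at 1084, 906 and 1198 TPM in DIC and 1246, 979 and 1259.8 in the controls, and the groups overlapped (log2 fold change -0.13, 95% interval -0.54 to 0.29). Its fold change was 0.080 after rescaling and 0.16 after quantile normalization. Eif1a measured 70.5, 69.1 and 85.9 and 114, 81.9 and 104 TPM, lower in DIC 1 and 2 than in any control. Eif1b, a close relative of Eif1, measured 72.2, 69.8 and 84.5 and 76.5, 78.5 and 84.8 TPM with overlap. Eif1ad and Eif1ax, the latter an X-linked eIF1A gene, had log2 fold changes of -0.37 and -0.22, and of these Eif1ad did not overlap.

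Fold changes within the role group of eIF4F, related proteins and helicase cofactors had both signs. Of its 11 genes, 8 had negative and 3 positive values, with the groups not overlapping in 6 of the former and 1 of the latter. Over all tested genes, 18.4% were lower and 7.08% higher without overlap. With all libraries 0 were called, and without control 2 limma called 4 lower and 0 higher (8.45% and 3.93% of all genes). Eif4a1, the main helicase, measured 671, 783 and 788 TPM in DIC and 1189, 824 and 1045 in the controls (log2 fold change -0.44 ± 0.18, limma adjusted p = 0.234, and 0.0410 without control 2). Its paralog Eif4a2 measured 105, 87.02 and 113 and 132, 108 and 172 TPM and overlapped. Eif4a3, the helicase of the exon junction complex, measured 221, 274 and 239 and 412, 287 and 361 TPM (log2 fold change -0.52). Eif4a1 and Eif4a3 thus had every control above every DIC library. Eif4e, the cap-binding subunit, measured 195, 184 and 203 and 273, 219 and 268 TPM, again without overlap (log2 fold change -0.38, adjusted p = 0.0364 without control 2). Its relative Eif4e2, a weak cap binder known for repressing messages, measured 61.6, 54.2 and 62.9 and 94.03, 64.6 and 91.2 TPM, and Eif4h, a helicase cofactor, 163, 179 and 179.9 and 244, 205 and 226. Neither overlapped between groups. The remaining genes, Eif4b and Eif4e3, had log2 fold changes of -0.22, with overlap, and -0.17, without.

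The scaffolds of the eIF4G family had the positive values. Eif4g3 measured 19.1, 16.4 and 17.3 TPM in DIC and 12.8, 14.1 and 10.01 in the controls, with a log2 fold change of 0.50 ± 0.17 (95% interval 0.10 to 0.89, limma adjusted p = 0.213, and 0.0692 without control 2). All DIC libraries were above all controls, and control 4 was the lowest. Eif4g2 is a relative that lacks the binding site for eIF4E and serves cap-independent initiation. It measured 373, 296 and 352 and 328, 298 and 248 TPM and overlapped (log2 fold change 0.23, 95% interval -0.14 to 0.59). Eif4g1, the main scaffold, measured 63.98, 55.8 and 69.3 and 72.6, 55.9 and 49.7 TPM, with the highest and the lowest library both among the controls. With the neutrophil covariate the fold change was -0.044 for Eif4g1, -0.076 for Eif4g2 and 0.12 for Eif4g3.

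The proteins that hold eIF4E in check stood near no change, with a median of -0.070 over 4 genes, of which 0 were without overlap. The median was 0.13 after rescaling, 0.066 with the neutrophil covariate and 0.025 without DIC 1. Eif4ebp1, which mTORC1 releases from eIF4E, measured 90.2, 81.8 and 78.9 TPM in DIC and 109, 88.7 and 109.7 in the controls (log2 fold change -0.29, limma adjusted p = 0.271). Eif4ebp2 measured 8.97, 12.5 and 12.4 and 10.8, 11.1 and 12.1 TPM, and Eif4ebp3 3.72, 7.09 and 7.33 and 4.81, 5.34 and 5.89. In both, DIC 1 was the lowest library and DIC 3 or DIC 2 the highest. Eif4enif1, which carries eIF4E into the nucleus, had a log2 fold change of -0.12 (95% interval -0.44 to 0.19).

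**Figure D4:**
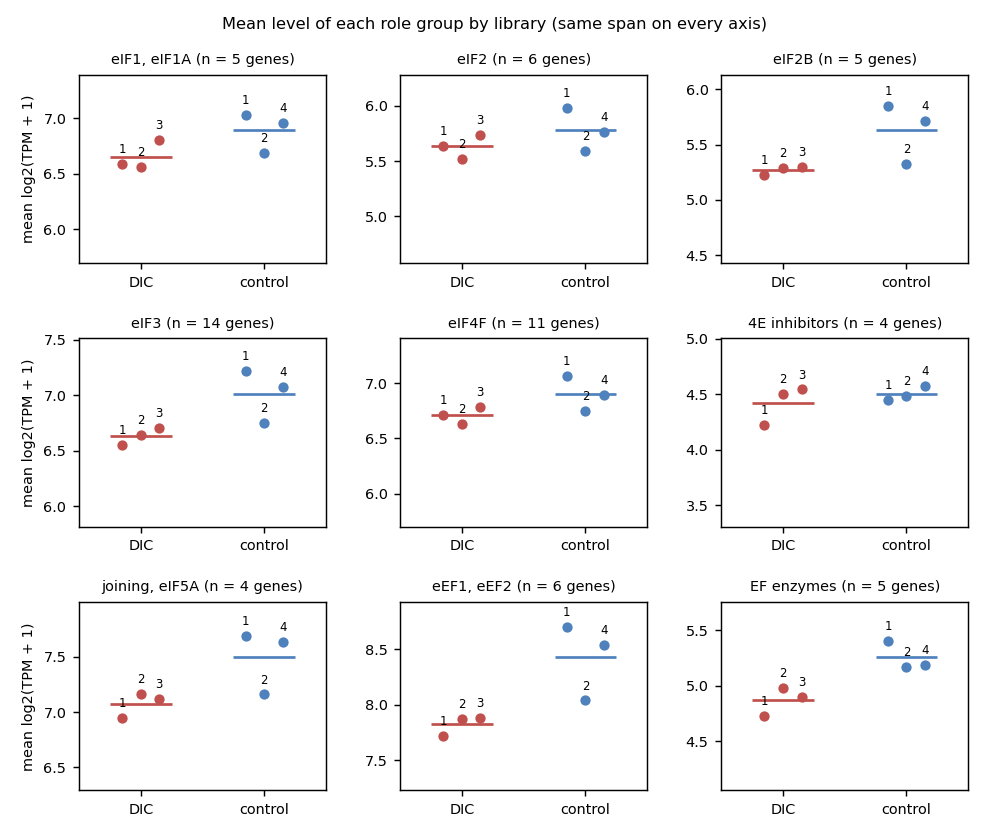
Mean log2(TPM + 1) of each role group (vertical axis) in each library (points, numbered) with the group mean as a line. The eEF1 and eEF2 panel has the widest gap between the groups, while in the 4E inhibitor panel the DIC points at 4.22 to 4.54 reach into the control points at 4.45 to 4.57.

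The fold changes of the 9 TOP messages were all negative, their median being -0.45, 7 of them without overlap and 7 called lower without control 2, beside -0.37 over all 60 genes and -0.44 over the 25 with a mean of at least 100 TPM. The cytosolic ribosomal proteins, whose messages are of the same kind, had a median of -0.51 with 58 of 58 negative and 43 without overlap. With all libraries 0 were called, and without control 2, 52 were. Over all tested genes, the shares lower without overlap and called lower without control 2 were 18.4% and 8.45%. The counts were 568 and 467 of the 1490 tested genes with a mean of at least 100 TPM. Rps19 measured 997, 1286 and 1233 TPM in DIC and 1996, 1572 and 1819.7 in the controls, and Rpl19 661, 829 and 721 and 1293, 915 and 1424. Both thus had every control above every DIC library.

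Ratios within a library do not depend on the scaling, and 9 of them were compared by an exact two-sided permutation test. With 3 libraries against 3 its smallest p is 0.1, so no ratio could pass 0.05, and the adjusted p lay between 0.6 and 1 (exact permutation test). Eif4g3 over Eif4g1 was 0.299, 0.294 and 0.250 in DIC and 0.176, 0.251 and 0.201 in the controls (exact permutation p = 0.2). The lowest DIC value lay below control 2 by little, and the other controls lay lower. Eef2k over Eef2 was 0.147, 0.126 and 0.145 in DIC and 0.101, 0.143 and 0.102 in the controls (exact permutation p = 0.2). Eif4ebp1 over Eif4e was nearly constant in the controls at 0.400, 0.405 and 0.410, and 0.463, 0.446 and 0.388 in DIC (exact permutation p = 0.4). Eif4a2 over Eif4a1 was 0.137 ± 0.024 in DIC and 0.136 ± 0.027 in control (SD, n = 3, exact permutation p = 1).

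The list for kinases and phosphatases that act on eIF2 was mostly on the other side of 0. Of its 8 genes 6 were positive, the median was 0.18, and 0 passed the test. The positive genes include Nck1 and Gcn1l1 (log2 fold changes 0.57 and 0.24), which are neither kinases nor phosphatases. With the neutrophil covariate the median was -0.070. The kinases Eif2ak1 (heme), Eif2ak2 (double-stranded RNA), Eif2ak3 (endoplasmic reticulum) and Eif2ak4 (amino acids) had log2 fold changes of 0.068, 0.31, 0.13 and -0.023. Ppp1r15b, which guides a phosphatase to eIF2, measured 39.8, 30.2 and 34.3 TPM in DIC and 25.1, 29.98 and 20.8 in the controls (limma adjusted p = 0.229), without overlap. Ppp1r15a, its stress-induced relative, named after its values were seen, measured 6.63, 10.7 and 24.1 and 78.4, 11.9 and 59.5 TPM. Control 2 was again at the DIC level and controls 1 and 4 were far above it (limma adjusted p = 0.268, and 0.0349 without control 2).

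Of 17 targets of the integrated stress response, 14 were tested, with 11 negative and a median of -0.35, and 0 passed the test with all libraries. Atf4, the transcription factor translated when eIF2 is phosphorylated, measured 81.8, 94.97 and 103 TPM in DIC and 201, 90.3 and 253 in the controls (log2 fold change -0.83 ± 0.36, limma adjusted p = 0.248, and 0.0166 without control 2). Control 2 fell within the DIC range. Phgdh and Shmt2, enzymes of serine and glycine synthesis, had log2 fold changes of -0.87 and -0.72, without overlap. The row matched to the symbol Ddit3 (ENSMUSG00000116429) was listed at 0 in all 6 libraries. Only 1 row was taken for each symbol, so this does not show that Ddit3 was absent.

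The mTORC1 list had 15 of 17 genes negative and a median of -0.24, and 0 passed. Mtor measured 5.77, 5.15 and 5.19 TPM in DIC and 9.50, 5.23 and 9.95 in the controls, and its partner Mlst8 28.01, 31.8 and 25.6 and 16.8, 24.1 and 14.02. For Mlst8 every DIC library was above every control (limma adjusted p = 0.212, and 0.0303 without control 2), while Mtor overlapped. Pdcd4, an inhibitor of eIF4A, and Pabpc1, the poly(A)-binding protein that contacts eIF4G, had log2 fold changes of -0.47 and -0.47. Pabpc1 is on the list of eIF4E kinases and poly(A)-binding proteins, which had 5 of 9 genes negative and a median of -0.032. That median was 0.15 with the neutrophil list removed and TPM rescaled. Cyfip2, on the same list, had a log2 fold change of 0.61, with every DIC library above every control (limma adjusted p = 0.216). Among the lists for other steps, 0 genes passed with all libraries. The medians were -0.17 for 7 genes of alternative initiation, -0.17 for 12 of termination, recycling and rescue, -0.23 for 8 of hypusine and diphthamide synthesis, -0.060 for 10 mitochondrial translation factors, -0.27 for 4 of selenocysteine elongation and -0.21 for 22 aminoacyl-tRNA synthetases and their scaffolds. With the neutrophil list removed and TPM rescaled, the first became 0.019, termination 0.020 and the mitochondrial factors 0.13, each with the sign turned. The others were then -0.024 for hypusine and diphthamide synthesis, -0.074 for selenocysteine elongation and -0.0066 for the synthetases, beside 0.105 for all tested genes.

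Values of some members are uncertain because their sequence is shared with other genes. Of all 75-base windows of the longest coding transcript, 87.4% were shared for Eif3j2 with Eif3j1, 64.2% for Eif4ebp3 with an overlapping gene, 62.9% for Eif4a1, 56.5% for Eef1g and 41.7% for Eef1a1, the last 3 mainly with pseudogenes. Over 10% was shared in 13 genes and none in 33. Exons of 25 members overlapped another gene, 14 of them on the same strand and 15 on the opposite strand, and the reads of such pairs may have been divided between them.

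**Figure D5:**
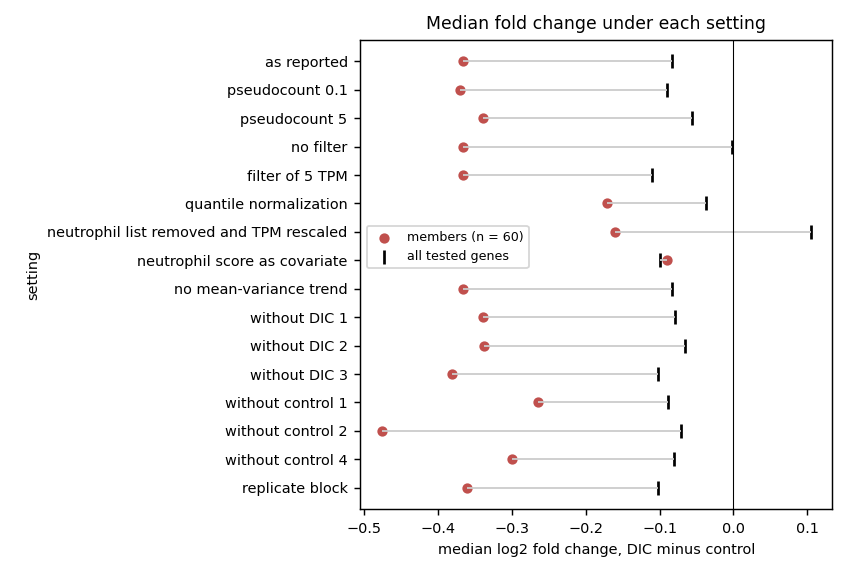
Median log2 fold change, DIC minus control, of the 60 genes (red points) and of all tested genes (black ticks) under each setting. The median of the 60 genes is below 0 in every setting shown, from -0.48 without control 2 to -0.090 with the neutrophil covariate, where it meets that of all genes.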

How the data were processed

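The values used are TPM, as the authors deposited them in a single table of 56750 rows. Per the labels' protocols, TRIzol was used to extract RNA, and a SMART-Seq v4 kit for small inputs gave libraries that were read from both ends. The submitters' processing notes name fastp 0.19.5, HISAT2 2.1.0, StringTie 2.1.2 and the build GRCm39. TPM carries no record of sequencing depth, which is therefore unknown. Symbols came from a GRCm38 annotation by gene identifier, which named 52081 rows and left 4669 without a symbol. The columns of controls 1 and 4 carry a clear group but could not be tied to single samples, because the title and the description of 1 sample give different numbers.

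The 13496 genes that reached 1 TPM in 3 or more libraries entered a limma model (limma 3.58.1, R 4.3.3) of log2(TPM + 1) on group alone, with limma's trend of variance on mean level. The test was two-sided, p-values were adjusted over these genes by Benjamini-Hochberg, and the threshold was 0.05. The pseudocount of 1 shrinks the fold changes of low genes. The fit was tested on simulated data. Members and gene lists were chosen with earlier results of these data known. Genes were named by a rule: the 10 highest means, the 6 lowest p in each direction, the extremes of each role group, the genes next to the TPM limit and a fixed set. Other members are given to complete the family, outside that rule. In the other lists the rule took the 2 lowest p and a fixed set. Alternatives were other pseudocounts, filters and scalings, a neutrophil covariate, no trend, a replicate block and leaving out each library.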

Additional observations from a re-analysis of the deposited data

How the results depend on the processing

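The family's 0 calls held in every setting tried except the one without control 2, and its median stayed below 0 in all of them. The counts of genes called over the whole table (5 higher, 3 lower) became 2 higher with a pseudocount of 0.1, 3 higher with a pseudocount of 5, 0 and 0 with no TPM filter, 1 lower after quantile normalization, and 0 and 0 with the neutrophil score as a covariate. Leaving out 1 library at a time gave 0 to 530 higher, 0 to 1141 lower and 0 to 22 members lower, the highest of each without control 2. Without DIC 1 or without control 4 the table gave 0 and 0, without DIC 2 it gave 16 higher and 4 lower, and without control 1 it gave 3 and 3. The family's median moved from -0.37 to -0.17 after quantile normalization, -0.16 after removing the neutrophil list and rescaling, and -0.090 with the covariate, and lay between -0.48 and -0.26 with 1 library left out. Log2 fold changes that changed sign, none of them called as reported, were Eif1 0.16, Eif1b 0.067, Eif2s3x 0.056 and Eif2s3y 0.010 after quantile normalization. After rescaling without the neutrophil list they were Eif1 0.080, Eif1b 0.12, Eif2d 0.12, Eif2s3x 0.17, Eif2s3y 0.080, Eif2b4 0.091, Eif3j1 0.013, Eif4e3 0.029, Eif4ebp2 0.18, Eif4enif1 0.079, Eef2k 0.080 and Eif2ak4 0.15. With the covariate they were Eif1ax 0.0081, Eif2b3 0.24, Eif2b4 0.14, Eif3a 0.12, Eif3b 0.12, Eif3h 0.030, Eif4g1 -0.044, Eif4g2 -0.076, Eif4ebp2 0.26, Eif5 0.16, Eif5a 0.021, Eif5b 0.055, Eif2ak3 -0.82, Ppp1r15b -0.083, Nck1 -0.056, Atf4 0.28, Mtor 0.023, Cyfip2 -0.030, Pelo 0.035 and Dohh 0.12. With 1 library left out, the values that crossed 0 ranged from -0.095 to 0.21 for Eif2s1, -0.17 to 0.14 for Eif2s3x, -0.23 to 0.0096 for Eif2s3y, -0.21 to 0.0089 for Eif2b4, -0.021 to 0.25 for Eif4g1, -0.090 to 0.13 for Eif4ebp2, -0.035 to 0.37 for Eif4ebp3, -0.0053 to 0.15 for Eif2ak1, -0.040 to 0.45 for Eif2ak3 and -0.12 to 0.10 for Eif2ak4. The cause of these changes was not tested. TPM keeps no sequencing depth, so the precision that counting gives is unknown.

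The groups share the replicate numbers 1 and 2, which do not pair the samples by label, and same-numbered libraries did not deviate together (correlations -0.068 and -0.102). With the replicate number as a block, 3 genes were called higher and 5 lower over the table and 0 members, the family's median was -0.36, and the signs of 3 genes turned, with Eif2s1 -0.17, Eif4g1 -0.091 and Eif2ak3 -0.19. In that fit DIC 3 and control 4 each stand alone in a block, so the comparison rests on libraries 1 and 2 of each group. The calls among the members stayed at 0, but so few libraries could hardly show a change.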
